A study of Mus musculus with 10 samples.

Results

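The mitochondrial respiratory chain of the mouse heart is described here from the transcripts of 32 nuclear genes, which encode subunits of complexes II, III and IV, cytochrome c and ATP synthase (complex V). The genes were chosen by name from the composition of these complexes: 4 of complex II, 9 of complex III, 13 of complex IV, 5 of ATP synthase and the gene of cytochrome c. All 32 were among the 15341 genes of the deposited table and all passed the filter on low counts. RNA sequencing had been done on the hearts of 10 male mice, with 5 S1Pless animals of the genotype Sphk1f/-:Sphk2f/-:Mx1Cre+ and 5 littermate controls of the genotype Sphk1f/-:Sphk2f/-:Mx1Cre-. Both groups thus carried 1 floxed and 1 null allele of each sphingosine kinase gene, and the controls differed by the absence of Mx1-Cre. Sphingosine 1-phosphate (S1P) is a lipid messenger made by these kinases, and S1Pless mice are described as lacking it in plasma. The Mx1 promoter that drives Cre is induced by interferon and acts in blood-forming cells and in several other cell types, so the model is not restricted to one cell type. The labels used here state neither the age of the animals nor how Cre was induced.

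Complex II passes electrons from succinate to ubiquinone, complex III passes them on to cytochrome c, and complex IV passes them to oxygen. Complexes III and IV pump protons, and ATP synthase uses the proton gradient to make ATP. Cardiomyocytes are packed with mitochondria, and the genes of these complexes are among the most strongly transcribed in heart muscle. Several complex IV subunits exist as pairs of genes, with one form typical of heart and skeletal muscle and another found in most tissues. Nuclear respiratory factor 1 (NRF1) is an activator of many of these genes and binds palindromic sites near their start.

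Upstream stretches of 3 members are shown because they hold the NRF1 motif GCGCANGCGC before the start of the gene. They are from RefSeq, build GRCm38.p6, read 5′ to 3′ on the strand of the gene, with the motif in capitals. The stretch of Sdha lies at chr13:74350241-74350353, that of Sdhd at chr9:50603899-50603943 and that of Atp5c1 at chr2:10080433-10080464, all on the minus strand.
Sdha: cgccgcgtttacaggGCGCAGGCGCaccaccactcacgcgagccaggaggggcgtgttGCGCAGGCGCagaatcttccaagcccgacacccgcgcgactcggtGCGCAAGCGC
Sdhd: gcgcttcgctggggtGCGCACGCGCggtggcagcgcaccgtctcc
Atp5c1: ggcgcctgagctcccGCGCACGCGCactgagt
Sdha, the catalytic flavoprotein of complex II, holds the motif 3 times in this stretch, and the last copy ends at the base before the start. The search covered 250 bases before to 50 bases after the start on both strands. The motif was in the windows of 5 of the 23 members found in the RefSeq table (21.7%), namely Sdha, Sdhd, Uqcrc1, Atp5c1 and Atp5o, and in 1402 of 27025 genes of that table (5.19%). The site of the oestrogen-related receptors, AAGGTCA, was in 1 of the 23 members (4.35%, Sdhd) and in 1454 of the 27025 genes (5.38%). A match is a match of letters in the window and says nothing about binding in these hearts.

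The libraries held 16354071 to 20832566 counts in S1Pless hearts and 17204491 to 20202283 in controls, with no difference found in depth (two-sided exact permutation test over the hearts, p = 0.540 before and after adjustment for 3 measures). Each member had between 866 and 113418 counts in every library, so counting error was small beside the differences between hearts. Levels are given as CPM, counts divided by the library total and the TMM factor of the library and set to a common library size. These factors averaged 1.05 ± 0.0328 in S1Pless hearts and 0.955 ± 0.0478 in controls (SD, n = 5 each, exact permutation adjusted p = 0.0476), so that the CPM values of S1Pless hearts are on average lower, relative to controls, than plain library totals would make them. The targeted kinase genes were not called in whole heart: Sphk1 had 0.400 to 0.987 CPM in S1Pless hearts and 0.852 to 1.78 CPM in controls (edgeR adjusted p = 0.168), and Sphk2 had 13.9 to 18.7 CPM in S1Pless hearts and 18.04 to 23.6 CPM in controls (adjusted p = 0.180). In bulk tissue, fewer cells of a type and less RNA per cell cannot be told apart. The numbers that end the column names run through all controls and then all S1Pless libraries, so library order and group cannot be told apart.

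All 32 subunit genes had lower mean levels in S1Pless hearts than in controls, although 3 turned above 0 when scaled to cardiomyocyte markers and 8 without control replicates 1 and 3. None passed the test. The median log2 fold change, S1Pless over control, was -0.26, a level 16.6% lower, and the members ran from -0.39 for Cox7a2 to -0.19 for Uqcrb. The size was similar throughout: 24 of 32 lay between -0.30 and -0.20. Leaving out 1 heart moved the value of 21 of 32 members by more than 1.5 times for at least 1 choice of heart, 12 of them without control replicate 1 and 12 without control replicate 3, and single values then ran from -0.54 (Cox8b without S1Pless replicate 1) to -0.047 (Uqcrb without control replicate 1). Over all 12992 genes tested the median was -0.014, 52.6% lay below 0, and 7.08% lay at or below the median of the members. Calls were made at a Benjamini-Hochberg adjusted p below 0.05 over all genes tested, from the quasi-likelihood test of edgeR. It called 0 of 32 members, against 0.316% of all genes called lower, and the members' adjusted p-values ran from 0.117 to 0.566. Before adjustment, 9 of 32 members were lower at p below 0.05, as were 886 of all genes (6.82%). DESeq2 called 4 members lower (Sdha, Sdhc, Uqcrc2 and Atp5a1), against 2.03% of all genes. By limma-voom with quality weights, 0 members and 60 of all genes were called lower. In that fit 4 members had an unadjusted p below 0.05, and the share of all genes at that limit was not taken. P-values here measure the spread among these 10 hearts, each listed as a separate sample.

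**Figure D1:**
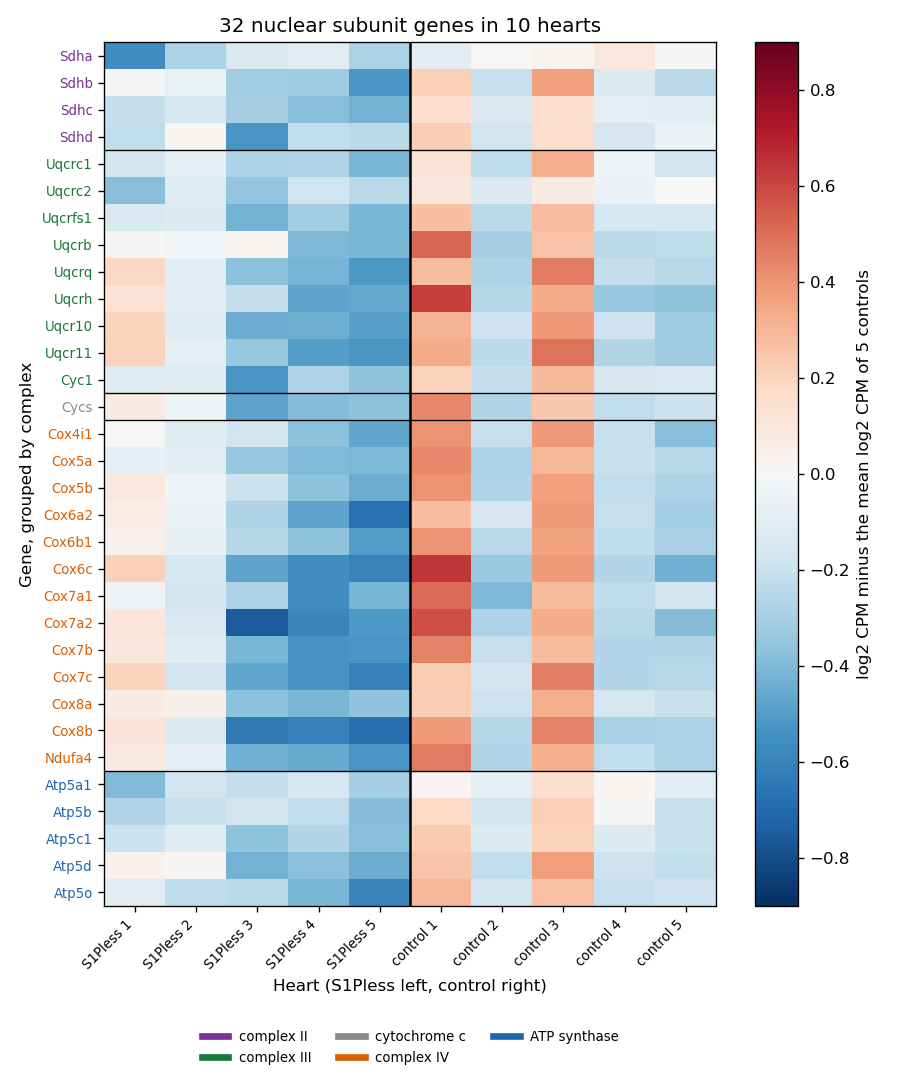
Each cell is the log2 CPM of a subunit gene (rows, grouped by complex) in a heart (columns, S1Pless left, control right) minus the mean log2 CPM of the 5 controls. Control replicates 1 and 3 are the 2 highest hearts in 31 of 32 genes, and S1Pless replicate 5 is the lowest in 20.

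In complex II the 4 genes had mean levels 15.1 to 18.7% lower in S1Pless hearts, and 2 of them, Sdhc and Sdha, had an unadjusted p below 0.05. Sdhc (ENSMUSG00000058076), which encodes a membrane anchor at the ubiquinone site, had 391, 405, 368, 346 and 337 CPM in S1Pless hearts and 504, 413, 504, 428 and 423 CPM in controls. Every S1Pless heart lay below every control, with a gap of 405 to 413 CPM between the groups. Its log2 fold change was -0.30 ± 0.100 (SE, edgeR adjusted p = 0.117). Sdha (ENSMUSG00000021577), the succinate-oxidising flavoprotein, had 1014, 1225, 1369, 1402 and 1225 CPM in S1Pless hearts and 1390.0, 1502, 1519, 1598 and 1475 CPM in controls. Of the S1Pless hearts, 4 lay below the lowest control, and replicate 1 was the lowest of all (log2 fold change -0.26 ± 0.106, adjusted p = 0.188). Sdhb, the iron-sulphur subunit, ranged over 515 to 732 CPM in S1Pless hearts and 625 to 954 CPM in controls. Sdhd, the second membrane anchor, ranged over 279.9 to 408 CPM in S1Pless hearts and 356 to 469.7 CPM in controls. Both overlapped between the groups (edgeR adjusted p = 0.345 and 0.293). Summed over the 4 genes, complex II held 2416 to 2748 CPM in S1Pless hearts and 2911 to 3427 CPM in controls, without overlap, and the sums also did not overlap with plain library totals (2620.0 to 2808 CPM on that scale in S1Pless hearts and 2824 to 3186 in controls). Sdhc did overlap with plain totals, at 362 to 416 in S1Pless hearts and 409.9 to 469 in controls. With TMM factors, the summed level of 15 cardiomyocyte marker genes did not overlap between the groups either, but with plain totals it did.

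Complex III had a median log2 fold change of -0.26 over 9 genes, and 3 of them had an unadjusted p below 0.05: Uqcrc2, Uqcrfs1 and Cyc1. Uqcrc2 (ENSMUSG00000030884), a core protein, had 684, 826, 697, 788 and 753 CPM in S1Pless hearts and 958, 813, 939, 859.6 and 891 CPM in controls. The groups overlapped only through S1Pless replicate 2, which lay above control replicate 2, and the log2 fold change was -0.25 ± 0.0962 (SE, edgeR adjusted p = 0.166). The redox subunits showed the same size: Uqcrfs1, the Rieske iron-sulphur protein, had a log2 fold change of -0.29 (adjusted p = 0.222) and Cyc1, cytochrome c1, of -0.28 (adjusted p = 0.239). Uqcrc1, the other core protein, ranged over 823 to 1025 CPM in S1Pless hearts and 933 to 1369 CPM in controls. The 5 small accessory subunits Uqcrb, Uqcrq, Uqcrh, Uqcr10 and Uqcr11 had log2 fold changes of -0.26 to -0.19 and the highest adjusted p-values of the complex, 0.421 to 0.566. Uqcrh, the hinge protein at the cytochrome c site, had 519.9, 445, 409, 341 and 345 CPM in S1Pless hearts and 732, 397, 598, 376 and 369.7 CPM in controls. Control replicates 1 and 3 stood above all other hearts, and S1Pless replicates 1 and 2 exceeded the remaining 3 controls. Cycs, cytochrome c itself, ranged over 96.6 to 141 CPM in S1Pless hearts and 112 to 181 CPM in controls (log2 fold change -0.25, adjusted p = 0.392). Summed over its 9 genes, complex III held 3979 to 4953 CPM in S1Pless hearts and 4499 to 6421 CPM in controls, and the groups overlapped.

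Complex IV had a median log2 fold change of -0.29 over 13 genes, and its genes were spread widely between hearts. Its median was the lowest of complexes II to V in 17 of 25 ways of processing, and that of complex II was the lowest in 7, among them limma-voom and the fits without control replicate 1 or 3. None of them had an unadjusted p below 0.05. Cox7a2 (ENSMUSG00000032330), the general form of subunit 7a, had 267, 224, 147, 165 and 173 CPM in S1Pless hearts and 370.0, 203, 312, 208 and 189 CPM in controls. Cox8b (ENSMUSG00000025488), the muscle form of subunit 8, had 321, 269.6, 190.2, 194 and 184 CPM in S1Pless hearts and 386, 248, 403, 241 and 242 CPM in controls. Both had log2 fold changes of -0.39, the lowest of all members, with S1Pless replicates 1 and 2 above controls 2, 4 and 5 and adjusted p-values of 0.318 and 0.294. Cox6c, a small membrane subunit, had 457, 352, 283, 267 and 259 CPM in S1Pless hearts and 615, 312, 514, 328 and 291 CPM in controls. Its log2 fold change was -0.35 ± 0.222 (SE, adjusted p = 0.409), and its standard error was the largest of the 32. Cox6a2, the muscle form of subunit 6a, ranged over 751 to 1257 CPM in S1Pless hearts and 969.8 to 1561 CPM in controls (log2 fold change -0.28). Cox7a1, the muscle form of subunit 7a, ranged over 339 to 483 CPM in S1Pless hearts and 379 to 713 CPM in controls (-0.33). Fold changes in the rest of the complex were similar. Cox4i1, the regulatory subunit that binds ATP, and Cox6b1, which faces the intermembrane space, had -0.25 each. The matrix-side subunits Cox5a and Cox5b had -0.29 and -0.21, and the small subunits Cox7b and Cox7c had -0.31 each. Cox8a, the general form of subunit 8, had -0.20, and Ndufa4, first assigned to complex I, had -0.29. Adjusted p-values over the complex ran from 0.294 to 0.507 (edgeR), and the groups overlapped in all 13 genes. Their summed level also overlapped, at 5073 to 7538 CPM in S1Pless hearts and 5895 to 9733 CPM in controls.

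Of the 5 ATP synthase members, 4 had an unadjusted p below 0.05 (edgeR), all but Atp5d, while 6.82% of all genes were lower at that limit. These 5 are a part of the complex. Among its other subunits, Atp5g1 and Atp5md also had an unadjusted p below 0.05. The subunits Atp5e, Atp5f1, Atp5h, Atp5j, Atp5j2, Atp5k, Atp5l, Atp5g2, Atp5g3 and Atp5mpl did not. Atp5a1 (ENSMUSG00000025428), the alpha subunit, had 3152, 3655, 3581, 3732 and 3363 CPM in S1Pless hearts and 4217, 3902, 4586, 4203 and 3862 CPM in controls. It was, with Sdhc, one of 2 members in which every S1Pless heart lay below every control, which was so for 1.82% of all genes, and its log2 fold change was -0.25 ± 0.0976 (SE, edgeR adjusted p = 0.178). Atp5b (ENSMUSG00000025393), the catalytic beta subunit, had 4323, 4534, 4593, 4463 and 3977 CPM in S1Pless hearts and 5878, 4618, 6039, 5164 and 4537 CPM in controls. The S1Pless hearts lay close together, the controls were spread, and the groups overlapped only through S1Pless replicate 3, which lay above control replicate 5 (log2 fold change -0.26 ± 0.111, adjusted p = 0.208). Atp5c1, the gamma subunit of the rotor, had -0.27 (adjusted p = 0.210). Atp5o, the stalk subunit that confers oligomycin sensitivity, had -0.33 (adjusted p = 0.177). Atp5d, the delta subunit of the central stalk, had -0.25 (adjusted p = 0.397). Summed over the 5 genes, ATP synthase held 8666 to 9860.0 CPM in S1Pless hearts and 9928 to 12739 CPM in controls, without overlap. With plain library totals the groups overlapped, both for this sum (9396 to 10060.2 in S1Pless hearts and 9631 to 11844 in controls) and for Atp5a1 (3352 to 3901 in S1Pless hearts and 3726 to 4264 in controls). Relative to ATP synthase, the summed level of complex IV was 0.552 to 0.828 in S1Pless hearts and 0.569 to 0.799 in controls, and that of complex II was 0.273 to 0.279 in S1Pless hearts and 0.264 to 0.293 in controls, so these proportions overlapped between the groups.

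**Figure D2:**
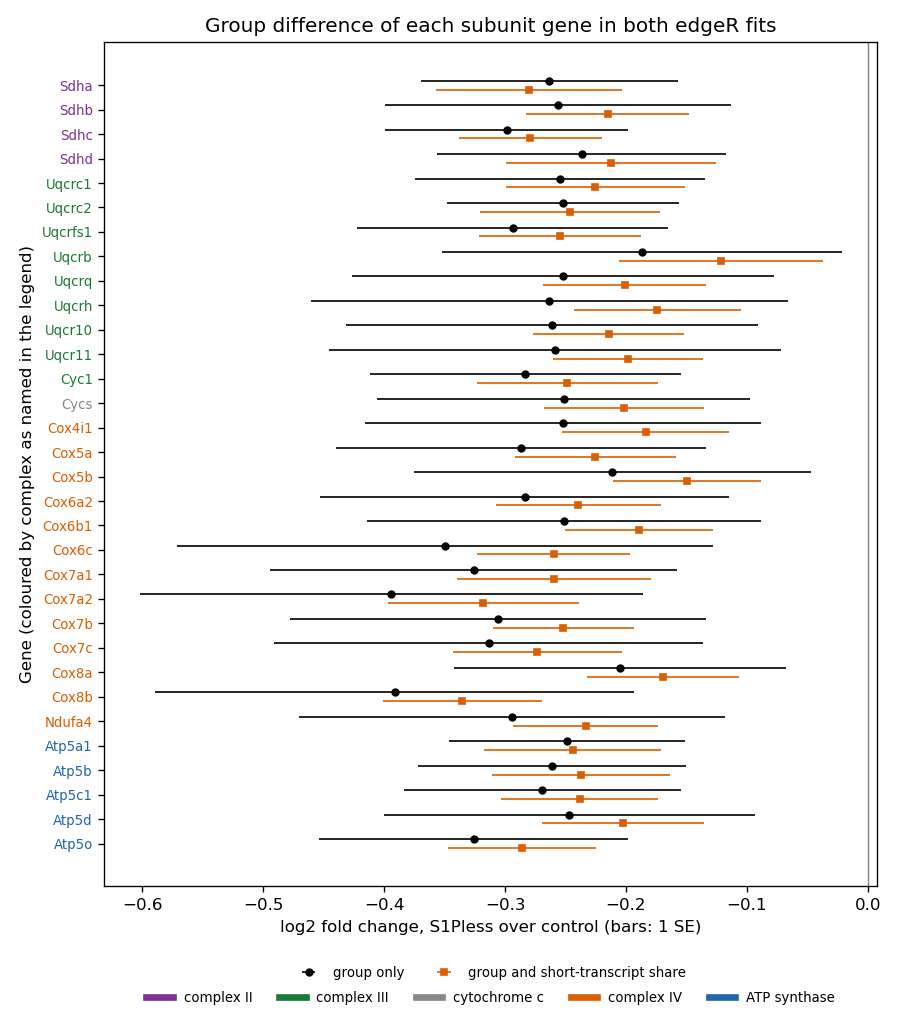
Points are log2 fold changes, S1Pless over control, of the 32 genes with bars of 1 SE, from the edgeR fit on group alone (black circles) and with the share of counts from short transcripts as a covariate (orange squares). All 32 points of both fits lie below 0 with these TMM factors, at -0.39 to -0.19 and -0.34 to -0.12. The bars of the second fit are shorter, in part by construction, since the covariate is highest in the hearts with high member levels. Scaled to cardiomyocyte marker genes, Uqcrb, Cox5b and Cox8a lie above 0.

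Between genes, levels were compared per kilobase of transcript. Atp5b was highest with 2285 CPM per kb in S1Pless hearts and 2739 in controls, followed by Cox4i1 with 1596 in S1Pless hearts and 1901 in controls and Cox6a2 with 1475 in S1Pless hearts and 1796 in controls. Atp5a1 came next with 1415 CPM per kb in S1Pless hearts and 1681 in controls. The lowest were Cycs, with 36.8 CPM per kb in S1Pless hearts and 43.8 in controls, and Atp5o, with 76.9 in S1Pless hearts and 96.5 in controls. Within the pairs of complex IV, the muscle form Cox8b had 644 CPM per kb in S1Pless hearts and 845 in controls, above Cox8a with 104 in S1Pless hearts and 119.7 in controls. Cox7a1 had 1044 CPM per kb in S1Pless hearts and 1309 in controls, above Cox7a2 with 296 in S1Pless hearts and 389 in controls. Of the 32 genes, 14 share a stretch of at least 100 bases at 95% identity or more with a transcript of another gene, and their levels are uncertain to that extent. For Cycs, 51 other genes hold such a stretch, and Atp5o is overlapped by a second locus of the same symbol.

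Differences between hearts of 1 group were of the size of the difference between the groups. Relative to the mean of its own group, the median member in S1Pless replicates 1 to 5 deviated by 0.26, 0.16, -0.097, -0.15 and -0.22 on the log2 scale, and in control replicates 1 to 5 by 0.29, -0.22, 0.32, -0.20 and -0.23. Control replicates 1 and 3 and S1Pless replicates 1 and 2 were thus the high hearts of their groups. Control 1 or control 3 was the highest of all hearts in 31 of 32 members, S1Pless 1 exceeded controls 2, 4 and 5 in 24, and the lowest heart was S1Pless 3, 4 or 5 in 29. Summed over the 32 genes, the level was 24219, 24424, 22185, 21932 and 20239 CPM in S1Pless hearts and 31569.9, 23784, 32038, 25114 and 23492 CPM in controls. The genes most like the mean of the members over the 10 hearts, with each group centred on its own mean, were Atp5j2 and Atp5k of ATP synthase, the proteasome gene Psmb6 and the complex I genes Ndufa12 and Ndufb9 (Pearson's r of 0.992 to 0.995 among 8682 genes). Over the 6 hearts other than these 4 high ones, the same genes had r of 0.858 to 0.932.

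Among the members, this variation went with transcript length. Length also differed by complex, with at least 1142 bases in every complex II member and at most 1001 in every complex IV member. The parts of length and complex in the spread were not separated. Across the 32 genes the SD between hearts within groups had a Spearman correlation of -0.73 with the length of the transcript, while over 8672 other genes of at least 10 CPM it was 0.036. These are correlations across genes of the same libraries, which are not independent. The SD was 0.223 to 0.418 (log2) in the 17 members under 1000 bases and 0.0999 to 0.317 in the 15 longer ones, and the median standard error of the fold change was 0.169 in the short members and 0.120 in the long ones. The fold changes had a median of -0.28 in the short and -0.26 in the long members. Their Spearman correlation with length was 0.25 in the members and 0.20 in the 8672 other genes. Of these other genes, those under 1000 bases had a median log2 fold change of -0.12 and the longer ones -0.040. These other genes include the complex I subunits, the other subunits of complexes III to V and the cardiomyocyte markers. Whether short genes outside those lists were also lower was not tested. Short transcripts of genes outside the members and the mitochondrial lists moved in the same hearts. Of the counts of all tested genes outside these lists, their share was 7.67, 6.86, 5.85, 5.36 and 5.23% in S1Pless hearts and 7.95, 5.58, 7.68, 5.44 and 5.16% in controls. The 4 hearts with the highest share were S1Pless 1 and 2 and control 1 and 3. The cell type markers, cardiomyocyte genes among them, were not left out, and their part in this share was not tested. Between the groups, this share averaged 6.19 ± 1.05% in S1Pless hearts and 6.36 ± 1.34% in controls (SD, n = 5 each, two-sided exact permutation p = 0.770, chosen after seeing the data). Mitochondrially encoded transcripts made up 24.7 ± 2.18% of counts in S1Pless hearts and 26.9 ± 3.85% in controls (exact permutation p = 0.310, adjusted p = 0.464), with the highest share, 33.4%, in control 1. This difference, S1Pless minus control, was -2.16 percentage points with all hearts and ran from -2.95 (without control 2) to -0.527 (without control 1) when 1 heart was left out. The part of RNA quality or library preparation in these differences was not tested.

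**Figure D3:**
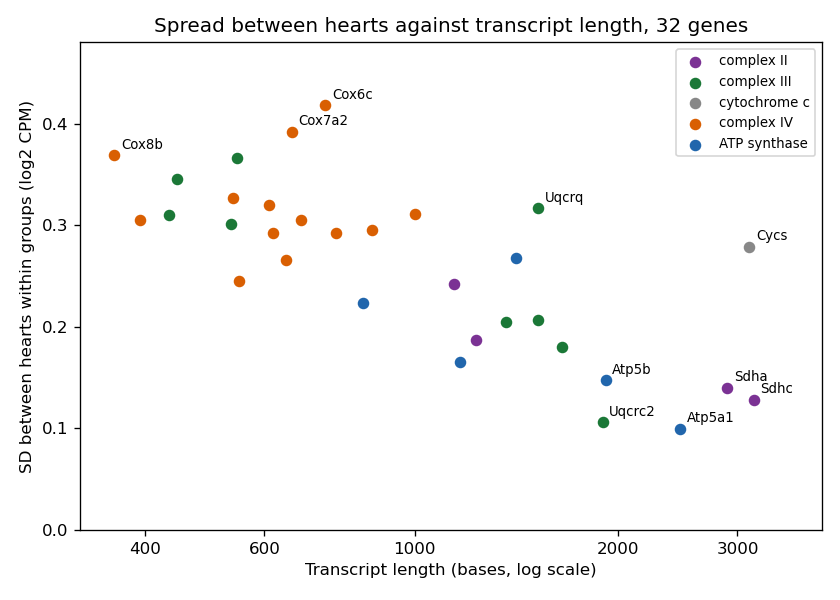
Each point is 1 of the 32 genes, with the length of its transcript in bases on a log axis and the SD of its log2 CPM between hearts within groups. Cox6c, at 0.418, and the other short complex IV genes lie high, and Atp5a1, at 0.0999, and the long genes of complex II and ATP synthase lie low.

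When the share of short transcripts was added to the edgeR fit as a covariate, the standard errors were smaller. This alternative was chosen after seeing the data. The share is highest in the same 4 hearts in which the members are high for their groups. By construction, the fit therefore takes up spread of the members within groups, and smaller standard errors and more calls are partly built into this covariate. The median log2 fold change was -0.24, against -0.26 without it, and 2 members moved by more than 1.5 times, Uqcrb to -0.12 and Uqcrh to -0.17. With the covariate, 31 of 32 members had an unadjusted p below 0.05. The share of all genes at that limit was not taken for this fit, so the count stands without a comparison. At an adjusted p below 0.05, 15 of 32 members were called lower, against 3.65% of all genes. They were Sdha and Sdhc of complex II, Uqcrfs1 and Uqcr10 of complex III, Cox5a, Cox6a2, Cox6c, Cox7a2, Cox7b, Cox7c, Cox8b and Ndufa4 of complex IV, and Atp5a1, Atp5c1 and Atp5o of ATP synthase. The smallest adjusted p-values were 0.0117 for Cox8b (-0.34 ± 0.0657, SE), 0.0157 for Sdhc (-0.28 ± 0.0594) and 0.0158 for Atp5o (-0.29 ± 0.0613). The size of the group difference changed with the hearts included. Without control replicates 1 and 3 the median of the members was -0.052 and 8 members lay above 0, without S1Pless replicates 1 and 2 it was -0.41 with all 32 below 0, and without all 4 it was -0.21 with all 32 below 0. No member was called in these 3 fits, which were chosen after seeing the data (edgeR, lowest adjusted p = 0.136, 0.0818 and 0.0628). Since these 4 hearts are those with the highest member levels, leaving out those of 1 group moves the difference by construction.

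The scaling of the libraries also set the size. With library totals alone, the median log2 fold change of the members was -0.12 and that of all genes 0.12. With factors set by 15 cardiomyocyte marker genes, the median was -0.049, with 3 of 32 members above 0 (Uqcrb, Cox5b and Cox8a), and that of all genes was 0.19. Relative to the median of all genes, the members lay at -0.24 under both, against -0.25 with TMM factors. A change of scaling moves all genes by nearly the same amount, so this distance stays nearly the same by construction. No member was called under either scaling (edgeR, lowest adjusted p = 0.315 and 0.536).

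**Figure D4:**
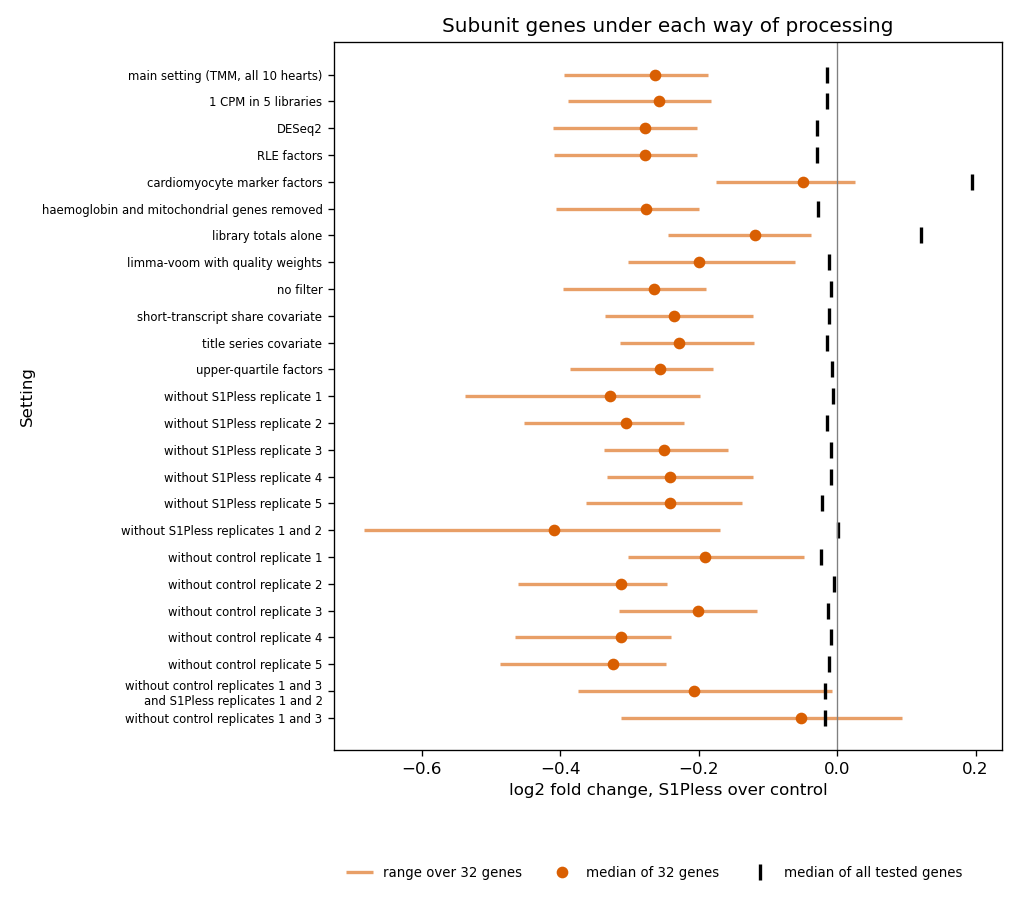
For each way of processing (rows), the orange line spans the log2 fold changes, S1Pless over control, of the 32 genes, the dot is their median and the black tick the median of all tested genes. The median of the 32 genes lies below that of all genes in every row, by 0.41 without S1Pless replicates 1 and 2 and by 0.034 without control replicates 1 and 3, and values above 0 appear in 2 rows, cardiomyocyte marker factors (3 genes) and without control replicates 1 and 3 (8 genes). Rows that differ only in scaling keep nearly the same distance between the medians by construction.

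Markers of the cell types of the heart were measured in the same libraries. The 15 cardiomyocyte markers, sarcomere and calcium-handling genes among them, were all detected. With TMM factors they summed to 76302 to 90362 CPM in S1Pless hearts and 94046 to 103892 CPM in controls. These sums did not overlap, as in the sums of complex II and ATP synthase. With plain library totals the groups overlapped. The marker share of the library, relative to its geometric mean over the hearts, was 0.917 to 1.01 in S1Pless hearts and 0.955 to 1.07 in controls. Their median log2 fold change was -0.19, with all 15 below 0 and 0 called. The members' summed level per cardiomyocyte marker count was 0.251 to 0.299 in S1Pless hearts and 0.249 to 0.324 in controls, so the groups overlapped. The 14 macrophage markers tested had a median log2 fold change of 0.90, with 8 called higher, and summed to 569.8 to 1408 CPM in S1Pless hearts and 357 to 473 CPM in controls. Endothelial markers had 1 of 10 called higher, and fibroblast (10), smooth muscle (5) and red cell (5) markers had none called, with medians of 0.16, 0.14, -0.25 and 0.47 in that order. The part of cell composition in the levels of the subunit genes was not tested. Among cell types the samples could hold in error, skeletal muscle markers summed to 2.45 to 4.33 CPM in S1Pless hearts and 2.63 to 4.54 CPM in controls, with Myh4 and Myog at 0 in all 10 libraries. Brown fat markers summed to 582 to 967 CPM in S1Pless hearts and 570.1 to 914 CPM in controls, mostly Fabp4, which endothelial cells also express. Prdm16 (34.9 to 46.6 CPM in S1Pless hearts and 31.8 to 46.5 in controls), Cidea (13.7 to 23.4 CPM in S1Pless hearts and 16.3 to 23.6 in controls) and Dio2 (1.81 to 3.32 CPM in S1Pless hearts and 1.01 to 3.44 in controls) were detected in all libraries. Elovl3, Adipoq and Plin1 were at 0 in 6, 4 and 3 libraries and below 1 CPM in the others. Atrial markers summed to 95.1 to 335 CPM in S1Pless hearts and 25 to 263 CPM in controls. Sln was at 0 in 6 libraries and Myl7 in 4, and both had their highest level in S1Pless replicate 3 (4.29 and 9.69 CPM). Without that heart the median of the members was -0.25.

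Complex IV isoform pairs compare 2 genes within each heart, which does not depend on scaling. In 3 pairs a muscle form is set over its general form, and in the fourth the widespread Cox4i1 is set over Cox4i2. Cox6a2 over Cox6a1 was the pair that differed: the ratio of counts was 18.3, 19.6, 18.8, 19.2 and 16.6 in S1Pless hearts and 20.8, 22.4, 22.1, 22.3 and 20.4 in controls. Every S1Pless heart lay below every control, including the 4 hearts in which both genes were high. The log2 difference was -0.22 ± 0.0507 (SE, two-sided exact permutation p = 0.00794, the smallest that 5 against 5 allows, adjusted p = 0.0317 over 4 pairs). The general form Cox6a1 had 54.0 ± 10.0 CPM in S1Pless hearts and 56.6 ± 12.5 CPM in controls, a log2 fold change of -0.066. Cox4i1 over Cox4i2, whose second form is known from lung and responds to low oxygen, was 77.1 to 105 in S1Pless hearts and 94.1 to 146 in controls (log2 difference -0.39 ± 0.145, exact permutation p = 0.0397, adjusted p = 0.0794). Cox8b over Cox8a was 3.65 to 4.69 in S1Pless hearts and 4.12 to 5.09 in controls (-0.18, exact permutation p = 0.0794, adjusted p = 0.106). Cox7a1 over Cox7a2 was 1.81 to 2.80 in S1Pless hearts and 1.86 to 2.35 in controls (0.081, exact permutation p = 0.587). General forms are also expressed outside muscle cells, and the part of the higher macrophage marker level in the Cox6a2 ratio was not tested.

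**Figure D5:**
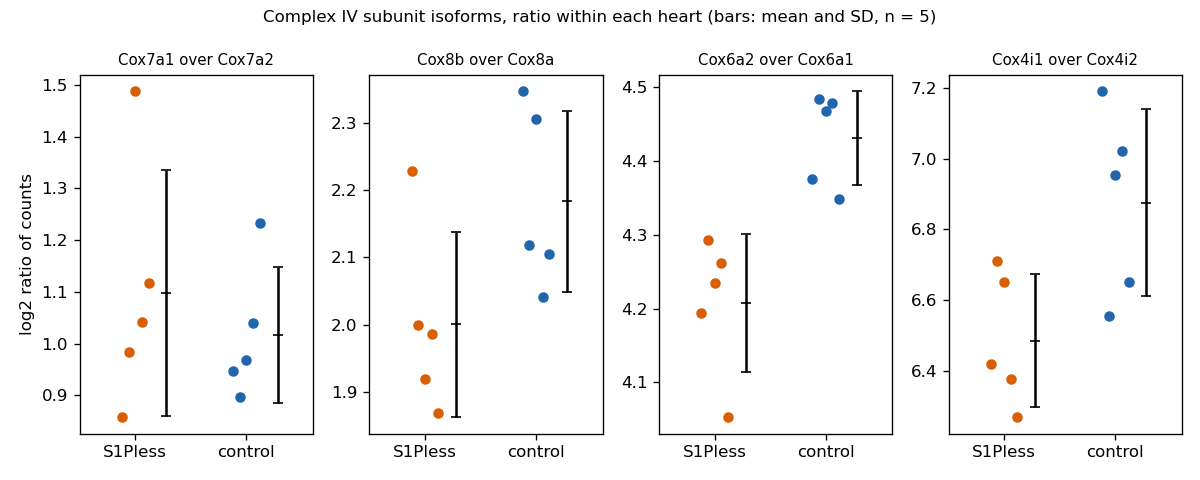
Each point is the log2 ratio of counts of a muscle or main form over its partner in 1 heart, S1Pless in orange at the left of each panel and control in blue at the right, with mean and SD bars (n = 5). In Cox6a2 over Cox6a1 all 5 S1Pless hearts lie below all 5 controls, and the other 3 pairs overlap.

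The neighbouring gene lists of the same organelle gave a similar picture, with 0 genes called in any of them by edgeR and signs that hold for these TMM factors. Among 17 other subunits of complexes III to V the median log2 fold change was -0.26 with 15 below 0, and Atp5g1, of the ATP synthase ring, had the smallest p (-0.34 ± 0.146, SE, adjusted p = 0.220). All 34 nuclear complex I subunits lay below 0 with a median of -0.25, and Ndufs1, an iron-sulphur subunit of the electron-entry arm, had the smallest p (-0.26 ± 0.0998, adjusted p = 0.162). All 9 mitochondrially encoded subunits tested lay below 0 with a median of -0.27, and mt-Co1, the catalytic core of complex IV, had the smallest p (-0.33 ± 0.134, adjusted p = 0.198). Counts of mt-Co2, mt-Co3 and mt-Atp6 were near 0 in most libraries and were not used. Of the 9 tested, mt-Nd4l had only 0.361 to 1.11 CPM in S1Pless hearts and 0.319 to 1.32 CPM in controls. Likewise mt-Nd3 had 4.35 to 5.91 CPM in S1Pless hearts and 5.08 to 8.68 CPM in controls, while mt-Co1 had at least 51969 CPM in every heart. The values of mt-Nd4l and mt-Nd3 are uncertain for that reason. Among 33 assembly factors 31 lay below 0 with a median of -0.18. Tmem70, which helps to assemble ATP synthase, had 78.0 ± 4.77 CPM in S1Pless hearts and 93.6 ± 6.35 CPM in controls (-0.26 ± 0.0805, adjusted p = 0.0893), and its groups did not overlap. Of 26 genes of mitochondrial mass and import 25 lay below 0, with a median of -0.18 and Vdac1, the main outer membrane channel, at -0.25 (adjusted p = 0.161). Regulators of mitochondrial biogenesis were mixed, with 15 of 20 below 0 and a median of -0.13. Gabpb1, a subunit of nuclear respiratory factor 2, was the one with the smallest p and had 22.8 ± 1.84 CPM in S1Pless hearts and 18.9 ± 1.77 CPM in controls (0.27 ± 0.0896, adjusted p = 0.112).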

How the data were processed

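Counts of reads per gene, not normalized, were deposited by the authors in 1 table of 15341 genes. Per the submitters' processing notes, STAR 2.7.8a, featureCounts 2.0.1 and GRCm39 were used. RNA was extracted with TRIzol and RNeasy kits for stranded mRNA libraries, per the labels' protocols. The annotation release, strand setting and handling of multi-mapping reads were not given in the sources used here.

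Symbols and transcript lengths came from GENCODE M21; of 2 identifiers named Atp5o, the one with more counts was used. Groups follow the genotype labels, and replicates, numbered in accession order, pair no animals. Libraries of 1 group differed by more than sampling noise (lowest chi-square per degree of freedom 10.4).

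The group fit used edgeR 4.0.16 (R 4.3.3) with filterByExpr at a minimum count of 10, TMM factors, robust glmQLFit, glmQLFTest, Benjamini-Hochberg adjustment over 12992 genes and a threshold of 0.05. It was tested on simulated data with changes larger than those of the members, which does not cover changes of their size. SE is the log2 fold change over the square root of F. Isoform ratios (0.5 counts added) and library measures had exact permutation tests (SciPy 1.17.1, Python 3.11.15). Shared stretches were found with BLAST 2.17.0. The share of short transcripts is that of 628 genes under 1000 bases in the summed counts of 12805 genes. Members and mitochondrial lists were left out of both, and cell type markers were kept. Alternatives were DESeq2 1.42.0, voom of limma 3.58.1, other scalings and filters, a covariate for the series of the title number, and leaving out hearts. All members were named, with the 5 genes most like them and, of each other pathway list, the called genes or the 1 with the smallest p. Members and lists were chosen with earlier results of these data known.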

Additional observations from a re-analysis of the deposited data

Results flagged for a closer look

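The summed level of the 14 macrophage markers was 1408 CPM in S1Pless replicate 5, while the other 4 S1Pless hearts had 569.8 to 711 CPM. The gap to the nearest heart was 0.832 of the range of the group, and 1 of 92 groups of 5 values tested stood apart in this way. Chance alone puts about 1 in 20 groups past such a limit. The same heart was the lowest of all 10 in 20 of the 32 subunit genes. Without it the median log2 fold change of the members was -0.24, against -0.26 with all hearts, and the part of the macrophage level in these values was not tested.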

How the results depend on the processing

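Genes called higher and lower, 442 and 41 with all hearts, were 764 and 264 with DESeq2, 2104 and 5 with cardiomyocyte marker factors and 1420 and 13 with library totals. With the short-transcript covariate they were 828 and 474, without controls 1 and 3 215 and 70, without these and S1Pless 1 and 2 84 and 9, and without S1Pless 1 and 2 21 were lower. Leaving out 1 heart gave 118 (without control 3) to 504 higher and 8 (without control 3) to 85 (without control 1) lower, moving by more than 1.5 times without S1Pless 1 or 5 or control 2, 3, 4 or 5 for higher genes and without any heart but S1Pless 2 or 3 for lower genes. Members called lower were 4 with DESeq2, 15 with the covariate and 0 in the other settings, and the median of all members was -0.33 to -0.19 when 1 heart was left out and -0.23 with a covariate for the series of the title number. The medians of complex II, III, IV and ATP synthase were -0.051, -0.043, -0.079 and -0.051 with cardiomyocyte marker factors, -0.12, -0.11, -0.15 and -0.12 with library totals, and -0.17, -0.020, -0.031 and -0.14 without controls 1 and 3. With 1 heart left out they were -0.30 to -0.23, -0.33 to -0.17 (without control 3), -0.39 to -0.17 (without control 1) and -0.31 to -0.21 in that order. The sign turned with cardiomyocyte marker factors in Uqcrb (0.026), Cox5b (0.0037) and Cox8a (0.0091). Without controls 1 and 3 it turned in Uqcrb (0.086), Uqcrq (0.0081), Uqcrh (0.093), Uqcr11 (0.037), Cox4i1 (0.026), Cox5b (0.060), Cox6b1 (0.019) and Cox6c (0.040). The cause was not tested.

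Cox6a2 over Cox6a1 was -0.24 to -0.18 with 1 heart left out, with an exact permutation adjusted p of 0.0317 without S1Pless 1 and 0.0635 without any other heart, the smallest that 4 against 5 hearts give where 1 of 4 pairs is separated. It was -0.21 in the hearts whose title number begins with 38 (exact permutation adjusted p = 0.229). That is again the smallest value so few hearts can give where 1 of 4 pairs is separated, so this test could not pass. Cox8b over Cox8a was -0.24 to -0.14 and passed without S1Pless 1 (adjusted p = 0.0317), and Cox7a1 over Cox7a2 was -0.017 (without S1Pless 3) to 0.14. The TMM factor difference was 0.0766 to 0.107, with adjusted p up to 0.0952. No paired analysis was possible because the labels name no litters and pair no animals. Depth limits little here, since every member had at least 866 counts, and the number of hearts and their spread limit the precision.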
